A study of Mus musculus with 20 samples.

Results

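MHC class I presentation was followed through 10 genes in fibroblasts from mouse embryos (MEFs) and in mouse embryonic stem cells (ESCs): the heavy chains H2-D1, H2-K1 and H2-T23, the light chain B2m, the peptide transporter genes Tap1 and Tap2, the loading factor Tapbp, and the immunoproteasome subunits Psmb8, Psmb9 and Psmb10. The genes were taken by symbol, and the platform annotation assigned 22 of the 45281 probes to them, among 19057 genes named by 1 symbol. All 20 arrays were read. H2-D1 had 4 probes, H2-K1, H2-T23 and B2m had 3 each, Tapbp, Psmb8 and Psmb10 had 2 each, and Tap1, Tap2 and Psmb9 had 1 each.

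The study asked how loss of Mysm1, a histone H2A deubiquitinase, changes gene expression, and total RNA from cells of 3 genotypes was hybridised to single-colour Illumina bead arrays. MEFs came from 4 wild type, 4 heterozygous (Mysm1+/tm1a) and 3 homozygous (Mysm1tma1/tm1a, as the label spells it) animals, and ESCs from 3 separately passaged cultures of each of these genotypes. All cells were on a C57BL/6 background, and the mutant allele is Mysm1tm1a(KOMP)WTSI. The number of ESC lines per genotype is not given in the sources used here, so the spread between ESC samples may be that between passages, and p-values then measure only the spread between these samples. In what follows "wt", "het" and "hom" are the wild type, heterozygous and homozygous groups.

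MHC class I molecules carry short peptides from inside the cell to its surface, where cytotoxic T cells and natural killer cells read them. Proteasomes cut proteins into peptides, the TAP transporter moves the peptides into the endoplasmic reticulum, and tapasin helps load them onto a heavy chain paired with beta-2 microglobulin. Interferons induce most of these genes in many cell types, and fibroblasts usually carry more class I at the surface than undifferentiated stem cells do.

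Levels are log2 intensities after background correction and quantile normalization. A probe counted as detected on an array when its detection p-value was under 0.01, and probes detected on at least 3 of the arrays compared were tested. A gene was read by its brightest probe, which for H2-T23 was another probe within the ESC arrays than in the other fits. In the fit across all 20 arrays 17 of the 22 probes, covering all 10 genes, were tested. The same number passed within the MEF arrays, and 12 probes of 8 genes passed within the ESC arrays, where H2-K1 and Tap1 were not tested. Probes of H2-D1, B2m and Psmb10 were detected on all 20 arrays, those of H2-T23 on 19, Psmb8 on 17, Tapbp and Psmb9 on 15, Tap2 on 13, Tap1 on 7 and H2-K1 on 5. Since the class I heavy chains are close in sequence and probe sequences were not used here, cross-hybridization between them was not tested.

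Across the series 28.5% to 31.8% of probes were detected per array, with a mean of 42.5 to 45.5 beads per probe, and 15 to 73 beads stood behind each reading of the class I probes. Raw signals had a median between 53.2 and 59.95 on 19 arrays, and of 95.7 on MEF hom 3. Mysm1 in MEFs averaged 7.35 ± 0.24 (SD, n = 4) in wt, 6.52 ± 0.16 (n = 4) in het and 5.28 ± 0.25 (n = 3) in hom arrays. In ESCs it was 7.61 ± 0.11 in wt, but the library labelled ESC het 1 (4.45, not detected) lay below the 3 labelled hom, and the library labelled ESC hom 1 (6.47) lay near the other two labelled het (6.67 and 6.69). Directions drawn from these 2 libraries go against their Mysm1 level, and results in ESCs are given with and without them where a call depends on them. All 14 pluripotency markers on the array were detected on all ESC arrays. In MEFs 14 of 15 fibroblast markers were detected on all arrays, Postn being the exception. The MEF arrays fell into 2 sets along their first principal component (68.0% of the variance, computed without the class I probes). It was positive on 6 arrays (wt 1, wt 4, het 1, het 2, hom 1, hom 2) and negative on 5 (wt 2, wt 3, het 3, het 4, hom 3).

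Of the 10 genes 8 lie in the MHC on chromosome 17 of the GRCm38.p6 build. H2-K1 spans chr17:33996012-34000619, Tapbp chr17:33919478-33929290, Psmb9 chr17:34182030-34187330, Tap1 chr17:34187556-34197225, Psmb8 chr17:34198195-34201454, Tap2 chr17:34204479-34216321, H2-D1 chr17:35263094-35267497 and H2-T23 chr17:36029977-36032701. Psmb9, Tap1, Psmb8 and Tap2 are neighbours. B2m lies apart on chromosome 2 (chr2:122147687-122153082), and Psmb10 on chromosome 8 (chr8:105935728-105938392).

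Promoter sequences from RefSeq (GRCm38.p6) were matched for 9 of the 10 genes, not Tap2. Those of H2-D1, B2m and H2-T23 are shown because these 3 genes had the highest correlations with the interferon response across the MEF arrays. The stretch between Tap1 and Psmb9 is shown because the pair is transcribed away from each other from starts 226 bases apart. Their levels had r = -0.268 over the 11 MEF arrays, as a description, and the Tap1 probe lay near background. Each is given 5′ to 3′ on its gene's strand up to the base before the annotated start, and capitals mark motif matches. They are chr17:35262844-35263093 (+ strand) for H2-D1, chr2:122147437-122147686 (+ strand) for B2m, chr17:36032702-36032951 (− strand) for H2-T23 and chr17:34187331-34187555 (+ strand, read toward Tap1) for the shared stretch.
H2-D1: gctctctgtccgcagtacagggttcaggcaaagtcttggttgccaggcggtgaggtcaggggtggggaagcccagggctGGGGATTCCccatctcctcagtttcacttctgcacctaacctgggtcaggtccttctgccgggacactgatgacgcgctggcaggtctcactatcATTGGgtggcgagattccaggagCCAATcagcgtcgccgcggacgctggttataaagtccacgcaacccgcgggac
B2m: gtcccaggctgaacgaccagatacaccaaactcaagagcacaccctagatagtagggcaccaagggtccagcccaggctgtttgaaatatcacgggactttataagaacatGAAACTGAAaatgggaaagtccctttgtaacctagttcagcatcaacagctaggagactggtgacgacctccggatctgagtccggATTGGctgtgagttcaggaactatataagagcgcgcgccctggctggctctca
H2-T23: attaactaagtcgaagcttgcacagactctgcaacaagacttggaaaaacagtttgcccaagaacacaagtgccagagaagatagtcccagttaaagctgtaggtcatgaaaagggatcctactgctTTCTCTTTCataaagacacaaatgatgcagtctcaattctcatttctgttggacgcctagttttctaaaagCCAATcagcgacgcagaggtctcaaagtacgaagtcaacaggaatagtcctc
Tap1 and Psmb9: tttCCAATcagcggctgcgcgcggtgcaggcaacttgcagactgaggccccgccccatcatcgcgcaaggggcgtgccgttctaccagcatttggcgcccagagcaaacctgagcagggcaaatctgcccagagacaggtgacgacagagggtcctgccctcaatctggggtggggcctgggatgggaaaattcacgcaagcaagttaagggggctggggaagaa
4 motifs were searched on both strands of windows from 250 bases before to 50 after each start, in 27025 genes, and no matches in these promoters overlapped. The core of the interferon-stimulated response element, written GAAANNGAA, was in the window of B2m (GAAACTGAA at -139) and of H2-T23 (TTCTCTTTC at -123, on the opposite strand), 2 of 9 genes against 9.76% of all genes. The NF-kappaB core GGGNNTTCC was in H2-D1 (GGGGATTCC at -171) and, with the same letters, in H2-K1, 2 of 9 against 6.58%. The NF-Y box CCAAT was in 7 of 9 windows, Psmb8 and Psmb10 being without it, against 41.1%, and the cyclic AMP response element TGACGTCA in 0 of 9 against 2.03%. The windows of Tap1 and Psmb9 share 275 bases, and their NF-Y matches are the same bases, counted for both genes. A match describes these letters only. Other spellings were not searched, so a window without a match, such as that of H2-D1 for the interferon element, may hold another form. The windows of H2-K1 and H2-D1 were 89.5% identical over 239 aligned bases, whereas those of H2-D1 and H2-T23 were 54.8% identical.

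The first comparison was between cell types, in wt cells. Fewer class I transcripts were measured in ESCs: 7 of the 10 genes fell and 0 rose, where limma called 59.1% of all 9977 genes tested, 27.2% lower and 31.9% higher. The median difference over the 10 genes was -1.21, against 0.05 over all genes (ESC minus MEF, log2 scale). The 7 include H2-K1 and Tap1, which were detected on no wt ESC array and lay near background, so small differences in them were not measurable. B2m, H2-D1 and Psmb8 had the largest falls of the 10. Psmb9, Psmb10 and Tap2 did not pass the test. With slide as a fixed block 0 of the 10 passed, against 14.3% of all genes, as detailed with the slides. In bulk samples such as these, fewer cells of a type and less RNA per cell cannot be told apart.

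**Figure D1:**
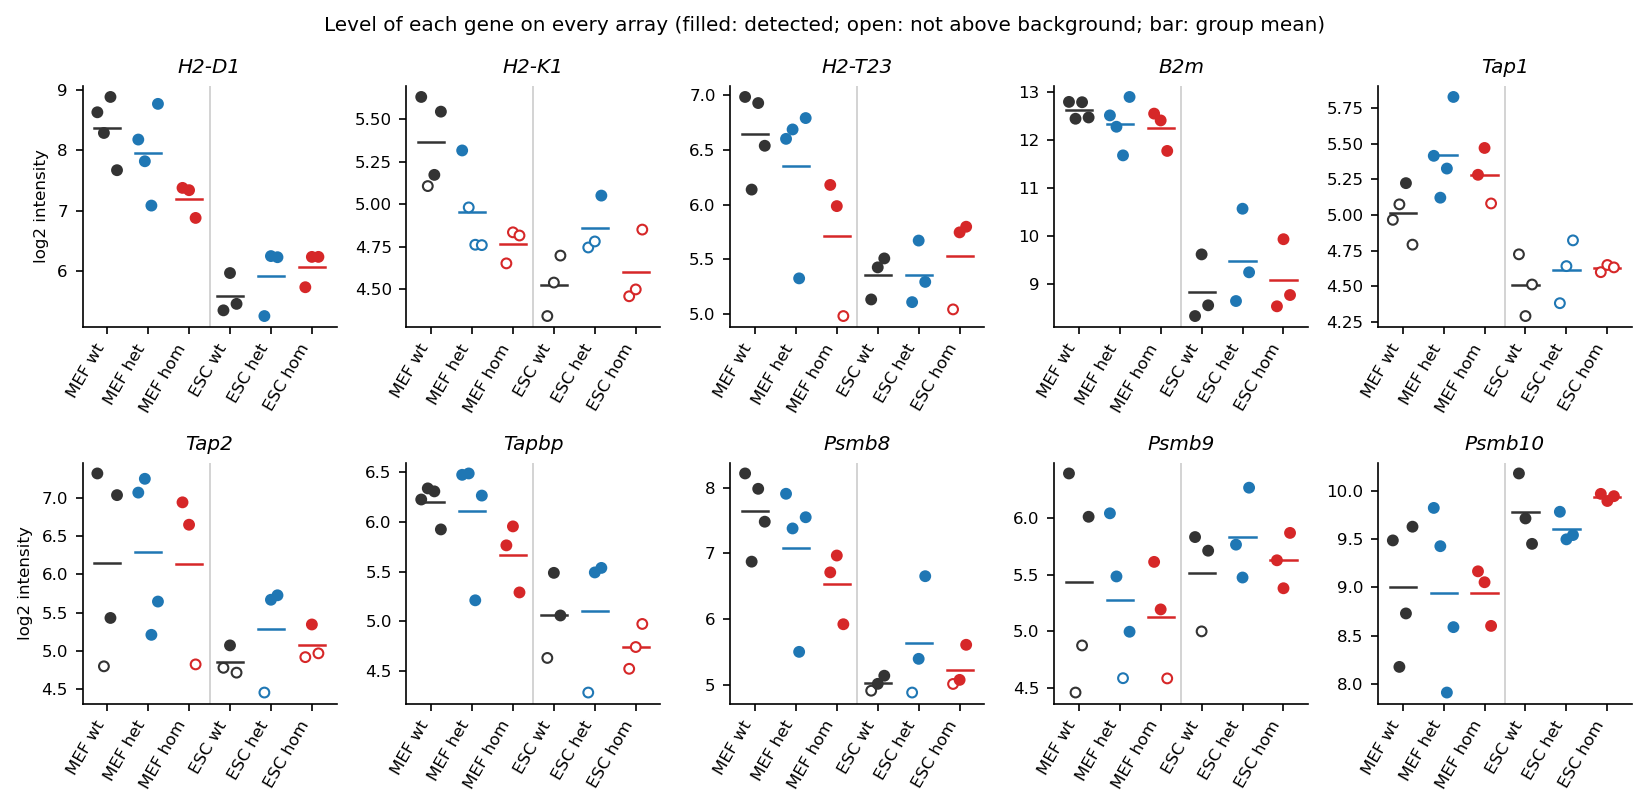
Log2 intensity of the 10 genes (brightest probe, all 20 arrays normalized together) on each array, by cell type and genotype; points are arrays, horizontal bars are group means, and open points are probes not detected on that array. B2m lay between 11.68 and 12.90 on the MEF arrays and between 8.32 and 10.57 on the ESC arrays, whereas the Psmb10 ranges met (7.91 to 9.82 and 9.45 to 10.18).

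B2m encodes beta-2 microglobulin, the light chain that every classical class I heavy chain needs to reach the surface. Its level was 12.80, 12.44, 12.79 and 12.47 on the wt MEF arrays and 8.32, 9.61 and 8.55 on the wt ESC arrays. The groups were far apart, and ESC wt 2 was the highest of the wt ESC arrays. B2m fell by 3.80 ± 0.42 on the log2 scale (SE, limma, n = 3 and 4), 13.9-fold lower, with an adjusted p of 7.83e-07, and its other tested probe gave -3.70. Across the 6 groups the order of means was MEF wt 12.62 ± 0.19 (SD, n = 4), MEF het 12.34 ± 0.51 (n = 4), MEF hom 12.24 ± 0.41 (n = 3), ESC het 9.48 ± 0.99 (n = 3), ESC hom 9.07 ± 0.75 (n = 3) and ESC wt 8.83 ± 0.69 (n = 3). Neighbours in this order within a cell type lay within their spread, and the step came between the cell types.

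H2-D1 encodes the classical heavy chain of the D locus, which binds peptide and is read by CD8 T cells. It was at 8.63, 8.28, 8.88 and 7.67 on the wt MEF arrays and at 5.36, 5.97 and 5.47 on the wt ESC arrays. Every wt MEF array lay above every wt ESC array. H2-D1 fell by 2.77 ± 0.35 (6.80-fold lower, limma adjusted p = 3.77e-06), and the other tested probe gave -3.07. Group means ran from MEF wt (8.37 ± 0.52) through het (7.96 ± 0.70) and hom (7.20 ± 0.28) to ESC hom (6.07 ± 0.29), het (5.92 ± 0.57) and wt (5.60 ± 0.33), and neighbours within a cell type lay within their spread.

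H2-K1, the classical heavy chain of the K locus, was dim throughout. It was at 5.63, 5.11, 5.17 and 5.54 on the wt MEF arrays, detected on 3 of them, and at 4.34, 4.54 and 4.70 on the wt ESC arrays, detected on 0 of 3. The groups did not overlap. By point estimate H2-K1 was at least 1.27-fold lower in ESCs (limma adjusted p = 0.000383 for the difference). For this fold the dim group was set at each array's lowest detected signal or the probe's own where that was higher.

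H2-T23 encodes Qa-1, a nonclassical heavy chain that presents signal peptides of other class I molecules to the NKG2A receptor of natural killer cells. Levels were 6.98, 6.14, 6.93 and 6.54 in wt MEFs and 5.13, 5.43 and 5.51 in wt ESCs. Again no ESC array reached the lowest MEF array. H2-T23 fell by 1.29 ± 0.35 (2.44-fold lower, limma adjusted p = 0.0041), and the other tested probes gave -1.08 and -1.04.

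Of the transport and loading genes Tapbp and Tap1 passed the test and Tap2 did not. Tapbp, which encodes tapasin, the bridge between the transporter and the heavy chain, was at 6.23, 6.34, 6.31 and 5.93 in wt MEFs and 4.63, 5.49 and 5.06 in wt ESCs, detected on 2 of 3 of the latter. It fell by 1.14 ± 0.33 on the log2 scale (limma adjusted p = 0.00644) without overlap. Tap1, which with Tap2 forms the peptide transporter, was detected on 1 of 4 wt MEF arrays and 0 of 3 wt ESC arrays. It fell by 0.51 ± 0.17 (limma adjusted p = 0.0156) between values close to background, so that no fold is given, and without ESC wt 2 it was -0.40 with an adjusted p of 0.0857 (0.00435 to 0.904 over the alternatives). Tap2 was at 7.32, 4.80, 5.43 and 7.04 in wt MEFs and 4.78, 5.07 and 4.71 in wt ESCs. MEF wt 1 and wt 4 stood well above the rest, and MEF wt 2 lay among the ESC arrays. The difference of -1.29 ± 0.63 did not pass the test (limma adjusted p = 0.0872, 95% interval -2.63 to 0.05).

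The immunoproteasome subunits went separate ways. Psmb8, the inducible chymotrypsin-like subunit, was at 8.22, 6.88, 7.99 and 7.48 in wt MEFs and at 4.91, 5.01 and 5.14 in wt ESCs, close to background and detected on 2 of 3 of them. It fell by 2.62 ± 0.50 on the log2 scale (limma adjusted p = 0.000222). Psmb9, the inducible caspase-like position, was at 6.39, 4.46, 4.87 and 6.01 in wt MEFs and at 5.83, 4.998 and 5.71 in wt ESCs, so the groups overlapped (0.08 ± 0.42, limma adjusted p = 0.885). Psmb10, the inducible trypsin-like subunit, was at 9.49, 8.18, 8.73 and 9.63 in wt MEFs and at 10.18, 9.71 and 9.45 in wt ESCs. Its difference of 0.78 ± 0.38 did not pass the test (limma adjusted p = 0.0887, 95% interval -0.03 to 1.59). By group mean the 3 ESC genotypes stood highest for Psmb10, with hom at 9.94 ± 0.04 (n = 3), wt at 9.78 ± 0.37 and het at 9.61 ± 0.15, followed by MEF wt at 9.005 ± 0.68 (n = 4), hom at 8.94 ± 0.30 and het at 8.94 ± 0.86, and neighbours in this order lay within their spread.

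**Figure D2:**
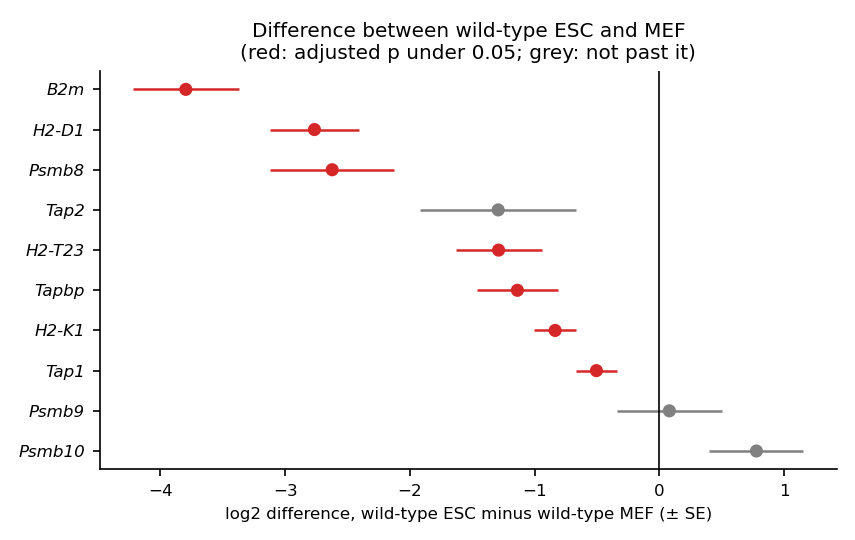
Difference between wt ESC and wt MEF (log2 scale, joint fit of all 20 arrays) for the 10 genes; points are limma estimates, bars are 1 SE on each side, and red marks an adjusted p under 0.05. The estimates run from -3.80 (B2m) to 0.78 (Psmb10), and Tap2, Psmb9 and Psmb10 are grey, not past the test.

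By an exact two-sided permutation test over the samples, B2m, H2-D1, Psmb8, H2-T23, Tapbp and H2-K1 each reached 0.0286, the smallest value that 3 against 4 samples allow, and Tap1 reached 0.0571. 7 genes were lower with no overlap, where 28.1% of all genes were. H2-K1 and Tap1, near background, are among these genes. The wt ESC arrays and the wt MEF arrays share no slide, as the array names show, and are linked only through MEF wt 4 and the ESC het arrays on slides 2 and 3. On slide 3, which holds MEF wt 4 and 5 ESC arrays of het and hom genotype, MEF wt 4 lay above all 5 ESC arrays for 7 of the 10 genes, for example B2m at 12.47 against 8.53 to 10.57. The share of all genes that did so was not counted, so this count describes the 10 genes and a single MEF array only. With slide as a random block 9 of the 10 genes passed, Tap2 lower (-1.42, limma adjusted p = 0.0248, with 0.0228 to 0.628 over the alternatives) and Psmb10 higher (0.81, limma adjusted p = 0.0290, with 0.0290 to 0.948), where 66.8% of all genes did. With slide as a fixed block, a fit chosen after seeing the data, 0 of 10 genes passed against 14.3% of all genes, 8 estimates lay below 0 and the median was -0.83. B2m was then at -2.38 ± 0.86 (limma adjusted p = 0.0832), H2-D1 at -1.09 ± 0.55, H2-K1 at -0.85 ± 0.39, H2-T23 at -0.81 ± 0.71 and Psmb8 at -1.32 ± 1.08, and Tapbp (0.37 ± 0.61) and Tap1 (0.07 ± 0.29) lay above 0. That fit ties slide 2 to slide 3 through the library labelled ESC het 1, whose Mysm1 level goes against its label.

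Other parts of the pathway were read from lists, where 31.9% of all genes were called higher in wt ESCs and 27.2% lower. Of 16 constitutive proteasome and activator genes tested 12 rose in wt ESCs and 0 fell, among them Psme4, a nuclear proteasome activator (1.28 ± 0.16, limma adjusted p = 3.08e-06), Psmb5 (0.80) and Psmb6 (0.61), the standard subunits that Psmb8 and Psmb9 replace, and Pomp, the assembly chaperone (0.55). Of 6 genes of peptide loading and trimming in the endoplasmic reticulum 4 fell, led by Pdia3, the thiol reductase of the loading complex (-1.13 ± 0.14, limma adjusted p = 2.13e-06), Sec61a1 (-0.72), Tapbpl, the tapasin relative (-0.79), and Sec61b (-0.41). Of 9 other class I heavy chains 5 fell and 2 rose, with H2-Q5 at -2.42 and H2-T10 at -2.11, and H2-M5 at 1.14 and H2-Bl at 0.74. Cytosolic peptidases, which trim or destroy peptides, included 2 of 4 that rose, Thop1 (1.33) and Blmh (0.42).

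Regulators of class I genes were split, with 4 of 12 higher and 4 lower in wt ESCs, beside 31.9% higher and 27.2% lower of all genes. Irf2 (-3.10), an interferon regulatory factor, and Rela (-1.54), an NF-kappaB subunit, fell, whereas Eed (2.00), a Polycomb subunit, and Nfyb (1.31), an NF-Y subunit, rose. Of 8 interferon receptor and signalling genes 4 fell and 3 rose, with Jak2 (-2.74), Ifngr1 (-1.79) and Ifnar2 (-1.54) among those lower and Tyk2 (1.07) among those higher. Interferon response genes moved with the class I genes, 15 of 19 lower and 0 higher with a median of -2.14, Isg15 at -5.08 and Usp18 at -4.91 among them. Markers of other cells moved as well: 14 of 14 fibroblast markers fell, and 12 of 13 macrophage markers fell while 1 rose. The summed fibroblast intensity was 27962 to 46102 on wt MEF arrays and 1962 to 6095 on wt ESC arrays, and the summed macrophage intensity 1931 to 11347 and 2459 to 3269, with Ptprc, Itgam and Ctss detected on no MEF or ESC array. The part of macrophages in the difference was not tested.

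The next comparison asked whether the genotype moved these genes in MEFs. No class I gene passed the test between hom and wt MEFs (0 of 10, against 0.0111% of all genes), and adjusted p-values were 0.999 to 1.00. 9 of the 10 estimates lay below 0, where 45.9% of all genes did, and their median was -0.46 against 0.02 for all genes. At an unadjusted p of 0.05, 3 of 10 passed, H2-D1, H2-K1 and H2-T23 being the 3, and 2.52% of all genes did. Of these, H2-K1 was at background on the hom arrays and met the detection filter mainly through the wt arrays.

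H2-D1 was at 8.63, 8.28, 8.88 and 7.67 on wt arrays, 8.18, 7.82, 7.09 and 8.77 on het arrays and 7.38, 7.34 and 6.88 on hom arrays. The 3 hom arrays lay below all wt arrays, and the het arrays spanned both. The fit within MEFs gave a hom minus wt difference of -1.14 ± 0.37 (95% interval -2.01 to -0.28, limma adjusted p = 0.999, exact permutation p = 0.0571). The other tested H2-D1 probe gave -1.42 ± 0.39, also without overlap (exact permutation p = 0.0286). H2-D1 and H2-K1 were the genes lower in hom without overlap, 2 of 10 against 2.52% of all genes. H2-K1 was detected on no hom array and met the detection filter mainly through the wt arrays, so its part in this count is not independent of that filter.

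H2-K1 was at 5.63, 5.11, 5.17 and 5.54 on wt arrays, 5.32, 4.98, 4.76 and 4.76 on het arrays and 4.65, 4.84 and 4.82 on hom arrays. It was detected on 3 wt arrays, on 1 het array and on no hom array. The difference was -0.64 ± 0.20 (limma adjusted p = 0.999, exact permutation p = 0.0286). With the dim group set at the lowest detected signal, as above, the point estimate was 1.30-fold, which is not a minimum for the true difference. Over the alternatives the difference ran from -0.73 to -0.26. H2-T23 ranged from 6.14 to 6.98 in wt, from 5.33 to 6.79 in het and from 4.98 to 6.18 in hom MEFs. Its hom and wt arrays met at the probe read (-0.95 ± 0.41), whereas a second probe had no overlap (-1.02, exact permutation p = 0.0286).

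The remaining MEF estimates did not pass at an unadjusted p of 0.05. Psmb8 stood at -1.10 ± 0.54 with levels of 6.71, 6.97 and 5.92 on hom arrays and 6.88 to 8.22 on wt arrays, which met. Tapbp was at -0.54 ± 0.31 and B2m at -0.37 ± 0.26. Psmb9 (-0.31 ± 0.52), Psmb10 (-0.06 ± 0.45) and Tap2 (-0.00 ± 0.77, 95% interval -1.79 to 1.78) had wide errors. Tap1 was the exception in sign, at 0.28 ± 0.20. Without MEF hom 3, the array with the high raw signal, H2-D1 was at -0.99, Psmb8 at -0.79, H2-T23 at -0.56, Tapbp at -0.35, B2m at -0.14 and Tap2 at 0.68.

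**Figure D3:**
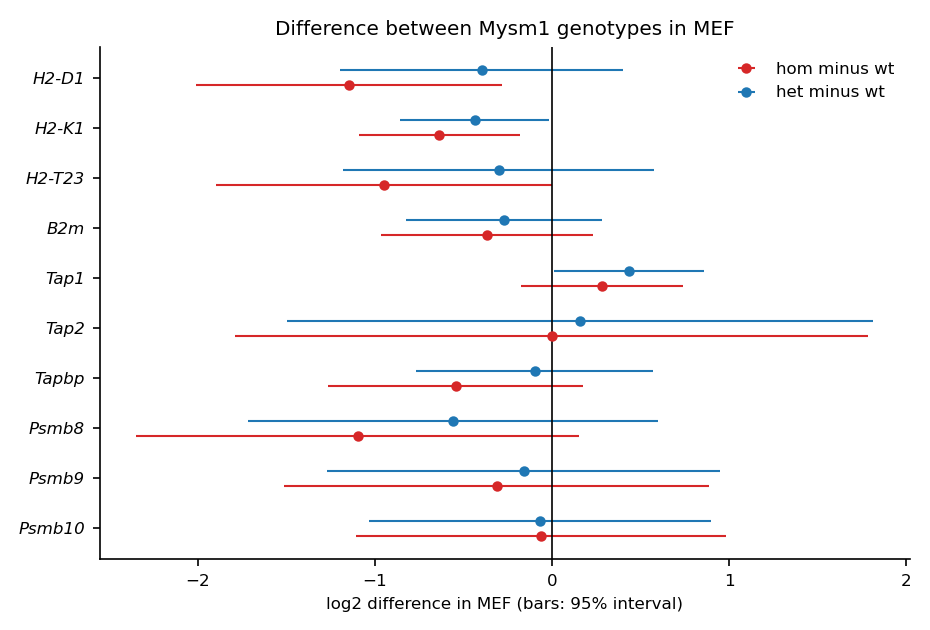
Differences of hom and het from wt MEFs (log2 scale, fit within MEFs) for the 10 genes; points are limma estimates and bars 95% intervals. For hom against wt 9 of 10 points lie below 0, and the H2-D1 interval runs from -2.01 to -0.28.

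Between het and wt MEFs 0 of 10 genes passed (0.0111% of all genes), 8 estimates lay below 0 (48.4% of all genes did) and the median was -0.22. H2-K1 at -0.44 ± 0.18 and Tap1 at 0.43 ± 0.18 passed at an unadjusted p of 0.05, 2 of 10 against 1.32% of genes, with limma adjusted p = 1.00 for both. Both probes lay near background, H2-K1 being detected on 5 and Tap1 on 7 of all 20 arrays. Small differences in them were not measurable, so this count is not read as a result. Between hom and het MEFs 0 of 10 passed (0.0111%), 9 lay below 0 (47.2% of all genes) and the median was -0.18, with H2-D1 at -0.75 ± 0.37. These comparisons share groups, so their estimates are not independent.

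No slide holds both wt and hom MEFs, and only the het arrays, 3 on slide 1 and het 4 on slide 4, link them. MEF wt 4 and MEF hom 3 are each the only MEF array on their slide and carry no weight with slide as a fixed block. The hom side of that fit rests on hom 1 and hom 2 against het 4 alone. With slide as a fixed block 0 of 10 genes passed for hom minus wt (0% of all genes), 7 lay below 0 and the median was -0.49. H2-D1 was then at -2.27 ± 0.52 (limma adjusted p = 0.320), B2m at -0.90 ± 0.37 and H2-K1 at -0.32 ± 0.40, while Tap2 (1.85 ± 1.35), Psmb10 (0.75 ± 0.91) and Psmb9 (0.58 ± 1.03) lay above 0. Slide 1 holds 3 wt and 3 het MEF arrays, and within it H2-D1 was at -0.89 ± 0.32 and B2m at -0.50 ± 0.22 for het minus wt (limma adjusted p = 0.959 for both). With slide as a random block H2-D1 was at -0.99 ± 0.32 for hom minus wt and 0 of 10 genes passed (0.0222% of all genes). Slide 4 holds 2 hom arrays and 1 het array, and het 4 is on the other side of the first component from both. Within it 8 of 10 genes passed, where 61% of all genes did, and Tap2 was 1.17 higher in the hom arrays.

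Interferon response genes leaned the same way in hom MEFs, with 19 of 19 estimates below 0 and a median of -1.02, 0 called and 8 at an unadjusted p of 0.05. Of all genes 45.9% lay below 0 and 2.52% passed at that unadjusted p. Rsad2 was at -1.56 ± 0.43, Oasl2 at -1.96 ± 0.71 and Isg15 at -2.38 ± 0.87. Regulators of class I genes were below 0 in 11 of 12 (median -0.29), with Irf9 at -0.88 ± 0.46. The other class I heavy chains (4 of 7 below 0, median -0.10), the loading genes (2 of 6, median 0.11) and the constitutive proteasome (10 of 16, median -0.05) were nearer the median of all genes. Macrophage markers were below 0 in 13 of 13, with a median of -0.31 and 0 called. Their summed intensity was 1931 to 11347 in wt and 2992 to 5006 in hom arrays, and their part in the class I values was not tested.

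The 10 genes did not vary as one set across the MEF arrays. On the scale within MEFs, Tap2 was at 6.78 to 7.44 on the 6 arrays with a positive first component and at 4.85 to 5.75 on the 5 with a negative one. Psmb9 (5.28 to 6.52 against 4.49 to 5.06) and Psmb10 (9.14 to 9.88 against 8.02 to 8.82) were split in the same way. These 3 of 10 genes were higher on the positive arrays without overlap, as 25.4% of all genes were, and the other 7 overlapped. The 6 positive arrays hold arrays of each genotype, as do the 5 negative ones. Summed macrophage intensity was 4904 to 11347 on the positive arrays and 1931 to 3455 on the negative ones. Summed fibroblast intensity was 43189 to 48469 on the positive arrays, 47307 on het 3 and 27962 to 33985 on the other 4 negative ones. The part of either in the split was not tested.

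Another 4 genes, H2-D1, B2m, H2-T23 and Psmb8, followed the interferon response over all 11 arrays. Over the 11 MEF arrays the median interferon response gene, centred per gene, was lowest on het 3 (-1.24) and hom 3 (-1.19) and highest on wt 3 (0.98) and het 4 (0.76). H2-D1 correlated with it at r = 0.951 (rho = 0.955), B2m at 0.941 (rho = 0.791), H2-T23 at 0.907 (rho = 0.818) and Psmb8 at 0.884 (rho = 0.836). Without het 3 and hom 3, the arrays farthest from the median, these were 0.940, 0.852, 0.768 and 0.682, and within the 6 arrays of positive first component 0.923, 0.746, 0.854 and 0.893. Tapbp went from 0.796 to 0.382 without those 2 arrays, so its relation rests on them. The values for H2-K1 (0.453), Psmb9 (0.310), Psmb10 (0.277), Tap2 (0.216) and Tap1 (0.139) were lower. Within the 6 positive arrays, however, Psmb9 was at 0.854, H2-K1 at 0.840, Tap2 at 0.715, Psmb10 at 0.467 and Tap1 at -0.540, so the genes did not divide in this way there. The arrays share normalization and the division along the first component, and these correlations are descriptions.

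**Figure D4:**
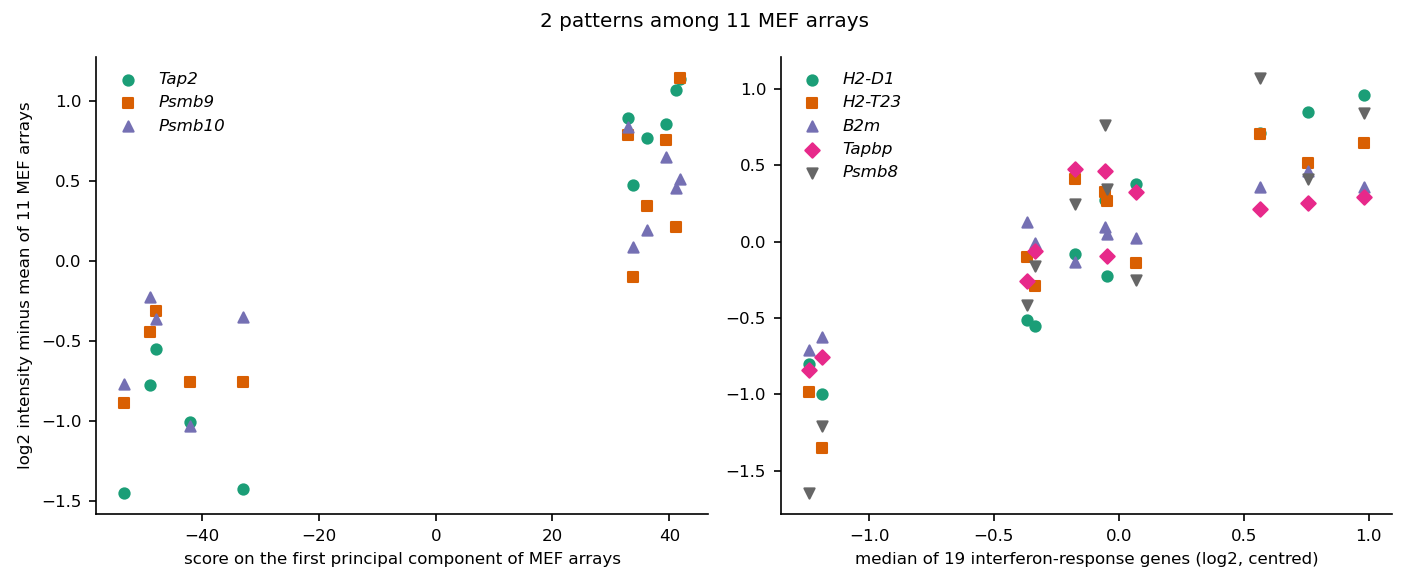
Log2 intensity on the 11 MEF arrays, centred per gene on its mean; on the left Tap2, Psmb9 and Psmb10 against the array's score on the first principal component, on the right H2-D1, H2-T23, B2m, Tapbp and Psmb8 against the median of 19 interferon response genes (centred log2 scale). On the left the 5 arrays with negative scores and the 6 with positive ones do not overlap, and on the right H2-D1 is higher where the interferon median is (r = 0.951).

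Among 4780 other genes averaging 7 or more in MEFs (log2 intensity), the 5 most like the mean of the 10 class I genes over the 11 arrays were Irgm2 (r = 0.979), an interferon-inducible GTPase, Gbp2 (0.938), a guanylate-binding protein, Oasl2 (0.934), an oligoadenylate synthetase relative, Car13 (0.909), a carbonic anhydrase, and Samd9l (0.907). Among 4357 such genes over the 9 ESC arrays the 5 most like the 8 genes tested there were Klf6 (0.940), Fam8a1 (0.939), Rbms1 (0.938), Amotl1 (0.937) and Tpm1 (0.926), a tropomyosin.

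In ESCs no class I gene passed the test in any genotype comparison when the replicate numbers were left out of the fit. Between hom and wt 0 of 8 passed, as did 0% of all genes, and the median difference was 0.18. Between het and wt 0 of 8 passed (0% of all genes; median 0.30), and between hom and het 0 of 8 passed (0%; median -0.20). At an unadjusted p of 0.05 the class I genes again gave 0 in each, against 11.4%, 4.12% and 3.5% of all genes. With 3 samples a group the exact permutation test cannot go below 0.1.

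H2-D1 in ESCs was at 5.36, 5.97 and 5.47 in wt, 5.26, 6.25 and 6.24 in het and 5.74, 6.24 and 6.24 in hom arrays. Hom and wt met, with a difference of 0.45 ± 0.27 (limma adjusted p = 0.520) in the fit within ESCs. B2m was at 8.32, 9.61 and 8.55 in wt, 8.64, 10.57 and 9.24 in het and 8.53, 9.93 and 8.76 in hom arrays. The array numbered 2 was the highest in every genotype. Psmb10 was at 10.18, 9.71 and 9.45 in wt, 9.78, 9.50 and 9.54 in het and 9.97, 9.90 and 9.95 in hom arrays. Hom lay above het without overlap (0.35 ± 0.18, exact permutation p = 0.1), as did 4.67% of all genes, and the second Psmb10 probe gave 0.43.

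Psmb8 was near background in ESCs apart from het 3 (6.65), with the other arrays at 4.88 to 5.61. Tapbp was detected on 2 of 3 wt, 2 of 3 het and 0 of 3 hom ESC arrays, at 4.29 to 5.54. Tap2 was detected on 4 of the 9 arrays, the highest being het 2 (5.67) and het 3 (5.73). Psmb9 was detected on all but wt 2 and ranged from 4.998 to 6.27, and H2-T23 ranged from 5.04 to 5.80. H2-K1 was detected on het 3 alone (5.05) and Tap1 on none of the 9 arrays.

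ESC arrays that share a replicate number varied together. On the scale within ESCs B2m was at 9.52 to 10.52 on the 3 arrays numbered 2 and at 8.19 to 9.14 on the other 6, and 7.74% of all genes were higher on those arrays without overlap. Psmb9 went the other way, at 4.91 to 5.34 against 5.48 to 6.10, as 8.24% of all genes did. The other 6 genes tested overlapped. The summed intensity of the fibroblast markers on the arrays numbered 2 was 6095 (wt), 9978 (het) and 7004 (hom), and on the other 6 it was 1962 to 2807. That of the macrophage markers was 3269 to 4277 against 1971 to 3109, and the part of either cell type in B2m was not tested.

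**Figure D5:**
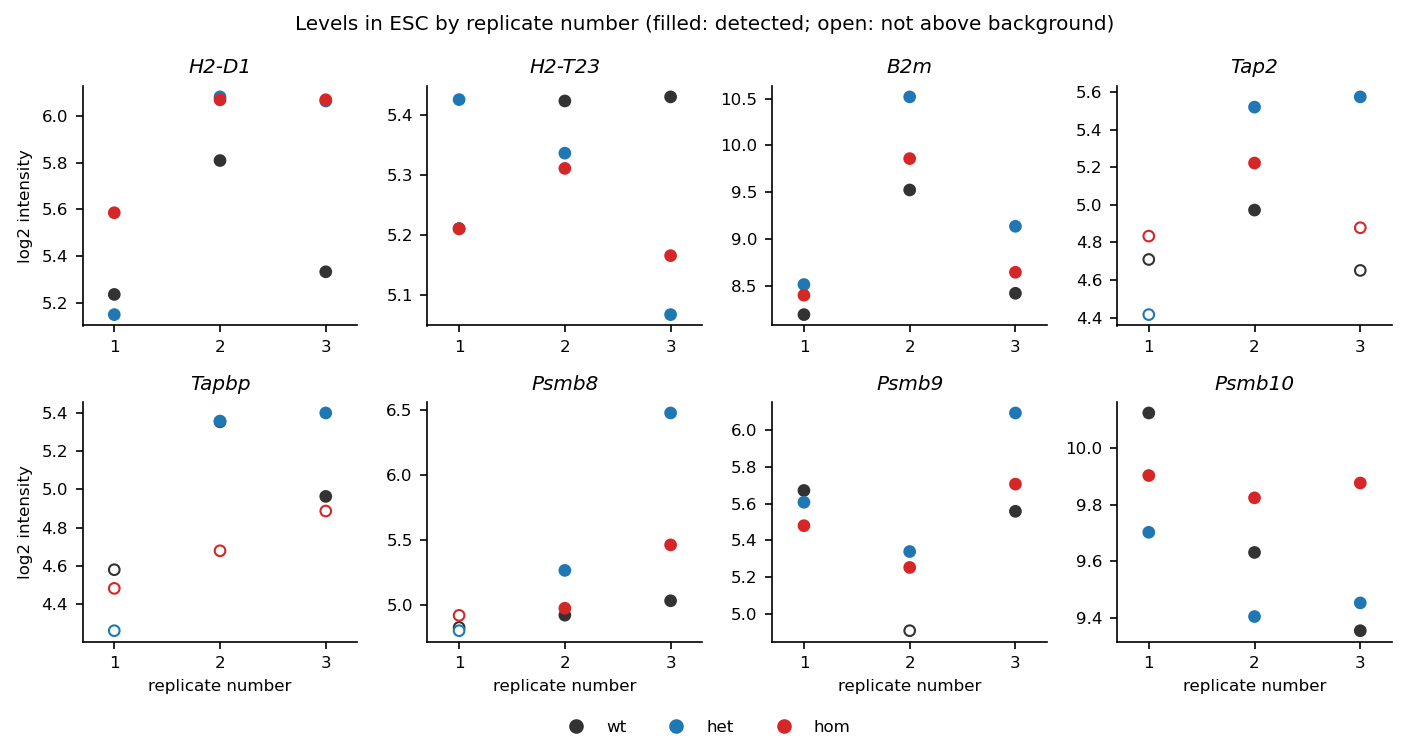
Log2 intensity of the 8 class I genes tested in ESCs (scale within ESCs) by replicate number, coloured by genotype; open points were not detected. B2m is highest on the 3 arrays numbered 2 (9.52 to 10.52), and Psmb9 lowest there (4.91 to 5.34).

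With the replicate number as a block B2m was higher in het than in wt ESCs by 0.68 ± 0.12 (limma adjusted p = 0.0493), 1 of 8 genes against 0.276% of all genes. The differences within number were 0.32, 0.99 and 0.72, so B2m was higher in 3 of 3 pairs. Without the block the same estimate had an SE of 0.54 and an adjusted p of 0.952, and over all alternatives the adjusted p ran from 0.00305 to 1.00. Hom minus wt in the blocked fit was 0.26 ± 0.12 for B2m (limma adjusted p = 0.219) and 0.45 ± 0.16 for H2-D1 (limma adjusted p = 0.119), both higher in 3 of 3 pairs, and 0 of 8 genes passed against 4.27% of all genes. Hom minus het was -0.42 ± 0.12 for B2m (limma adjusted p = 0.437), lower in 3 of 3 pairs, and 0% of all genes passed. Of all 8694 genes 4001 were above 0 in het minus wt and 4433 below 0 in hom minus het. The fibroblast markers lay on the same side as B2m in these 2 comparisons. In het minus wt 11 of 12 were above 0 (median 0.34) and in hom minus het 12 of 12 below 0 (median -0.20), with 0 called in each without the block. In hom minus wt, where B2m was higher, 6 of 12 fibroblast markers were above 0 and 6 below (median 0.03). Their part in the B2m differences was not tested.

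Without the libraries labelled ESC het 1 and ESC hom 1, and with the block, het minus wt was 0.86 ± 0.12 for B2m (limma adjusted p = 0.00305, 2.03% of all genes called) and hom minus het was -0.58 ± 0.12 (limma adjusted p = 0.0354, 2.13% called). 1 of 8 genes passed in each. Between hom and wt 0 of 8 passed, where 8.61% of all genes did. Without the block 0 of 8 passed in each of the 3 comparisons, also without these libraries. Slide 2 holds the wt arrays and het 1, and slide 3 the hom arrays with het 2 and het 3. Within slide 2 B2m was at -0.20 for het 1 minus all wt arrays, but at 0.32 for het 1 minus wt 1, which shares its number. Within slide 3 it was at -0.86 ± 0.54 for hom minus het (limma adjusted p = 0.883). Wt and hom ESCs share no slide and are linked through the het arrays, on slide 2 by the library labelled het 1 alone. With slide as a fixed block, chosen after seeing the data, hom minus wt gave 0 of 8 genes past the test (0% of all genes), 6 of 8 below 0 and a median of -0.68. B2m was then at -1.06 ± 0.90, H2-D1 at -0.48 ± 0.37 and Tapbp at -1.40 ± 0.38, so the signs of B2m and H2-D1 turned. This fit leaves out the replicate number, which is not balanced over the slides, so slide and number are mixed in these estimates.

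Whether genotype acted differently in the cell types was tested as an interaction. 0 of 10 genes passed for hom against wt, as did 0% of all genes, and 0 of 10 for het against wt (0%). The difference of differences, ESC minus MEF, was 1.64 ± 0.52 for H2-D1 (limma adjusted p = 0.868), 1.10 ± 0.51 for H2-T23 (0.946) and 0.67 ± 0.24 for H2-K1 (0.899) in hom against wt. These 3 of 10 passed at an unadjusted p of 0.05, where 5.22% of all genes did. For het against wt only H2-K1 did so (0.74 ± 0.24), where 2.54% of all genes did. H2-K1 was detected on 0 of 3 wt and 0 of 3 hom ESC arrays and on 1 of 3 het ones, so its ESC side lies at background and these values rest on the MEF arrays.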

How the data were processed

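RNA of 11 MEF and 9 ESC samples was read on Illumina bead arrays. The deposited file of intensity values held raw, non-normalized signals per probe with a detection p-value each; the detection p-values were deposited by the authors. BeadStudio and limma are named in the submitters' processing notes, without versions. Samples were grouped by the genotype and cell type in their labels. Probe genes came from the platform annotation: 34885 probes had 1 gene symbol, 18 several and 10378 none. Intensities were corrected with neqc (offset 16, background implied by the detection p-values of 936 control beads), quantile normalized within a cell type or over all 20 arrays, and taken to log2. limma 3.58.1 (R 4.3.3; lmFit, eBayes with trend) was fitted to 15125 probes in MEFs, 14502 in ESCs and 17067 over all arrays, with Benjamini-Hochberg adjustment over all probes tested and a threshold of 0.05. Single genes were also tested by exact two-sided permutation over samples. The fits were tested on simulated data.

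The genes named were the 10 class I genes, Mysm1, up to 4 genes by smallest p from each list, and the 5 genes most like the class I mean. The genes and lists were chosen with earlier results of these data known.

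Same-numbered ESC arrays deviated together (r = 0.367 to 0.773 over 9 pairs, against -0.622 to 0.204 over 18 others; 9 of 9 arrays closest to their own number), so the numbers pair the ESC samples. Alternatives were background correction, joint normalization, filters, the deposited normalized table, slide and replicate blocks, the first principal component as covariate, and leaving out each replicate or doubtful library. The precision is limited by the number of arrays. Drawn with matplotlib 3.10.9 and aligned with Biopython 1.88 (Python 3.11.15).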

Additional observations from a re-analysis of the deposited data

Results flagged for a closer look

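In groups of 4 arrays, 34 sets of values of class I probes were searched for an array far from the other 3, measured by the gap to its nearest neighbour over the whole range. Chance gives about 1 in 20 such sets, and 3 were found, all on MEF het 3. H2-T23 was at 5.44 there by one probe, with the other het arrays at 6.67 to 6.83, and at 5.42 by another, with the others at 6.73 to 6.92. Tapbp was at 5.30 there, with the others at 6.39 to 6.62. The cause was not tested.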

How the results depend on the processing

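Among the 9 comparisons, the number of class I genes passing the test stayed at 0 under every alternative in hom against wt MEF, het against wt MEF, hom against wt ESC and both interactions. Leaving out each replicate in turn gave 0 to 0 in the genotype comparisons and 6 to 8 in wt ESC against wt MEF, which ranged from 6 to 9 over the alternatives other than slide as a fixed block. That setting, chosen after seeing the data, gave 0, and Tap1 (0.068) and Tapbp (0.37) reversed. Within slide 4, with 1 het array, the count for hom against het MEF changed but is not read, and Tap2 reversed to 1.17. In ESCs the replicate block gave 1 for het against wt. With the block and without the libraries labelled het 1 and hom 1, a setting chosen after seeing the data, het against wt gave 1 and hom against het gave 1. The replicate block gave 0 in the 3 MEF comparisons, where same-numbered arrays correlated from -0.818 to 0.802 and do not pair, and it changed no other call; for wt ESC against wt MEF it could not be fitted. Of 1546 values of single genes under alternatives 123 changed sign, 3 of them with a call in the main fit or the alternative. Among values that kept their sign, 6 no longer passed the threshold and 14 newly did. Where counts changed, the cause was not tested. H2-K1 and Tap1 lay near background, so small differences in them were not measurable.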
